A study of Homo sapiens with 12 samples.

Results

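RNA was sequenced from A498 cells that had received siRNAs against both ELOVL2 and ELOVL5, and the transcript levels were compared with those of A498 cells given a control siRNA. A498 is an established human cell line from a clear cell kidney carcinoma. The comparison uses 6 of the 12 libraries of the study, 3 double-knockdown and 3 control libraries, which the labels call biological replicates. They were chosen by treatment label and not by any measured value. The other 6 libraries, 3 with the ELOVL2 siRNA alone (siELOVL2) and 3 with the ELOVL5 siRNA alone (siELOVL5), are used to show where the double knockdown differed from each single one. All 4 groups are the same cell line, were transfected, and carry the same batch label. The labels give no siRNA sequence, dose or time of harvest, and they name 1 treatment per target and no rescue, so an effect of losing the target and another effect of the siRNA cannot be told apart.

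ELOVL2 and ELOVL5 are enzymes of the endoplasmic reticulum that add a pair of carbons to polyunsaturated fatty acids. ELOVL5 acts mainly on the shorter of these acids and ELOVL2 on the longer ones, on the way to docosahexaenoic acid, which is stored in membrane phospholipids. Polyunsaturated chains are the substrate of lipid peroxidation and of prostaglandin synthesis, and they also hold down the lipid-synthesis factor SREBP1. A498 cells lack functional VHL, so hypoxia-inducible factor activity persists in them without hypoxia. An siRNA is a short RNA duplex whose guide strand directs cleavage of a matching transcript. The guide's first bases, its seed, can also lower other transcripts that pair with the seed in their 3′ untranslated region (3′ UTR), as a microRNA does.

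Values are the authors' quantile-normalized read counts, called normalized counts here, and they sum to 8.525 M in every library. The estimated depth before that step was 6.72 to 8.87 M reads in the control libraries and 6.70 to 8.80 M in the double-knockdown libraries. A gene without a read can hold up to 0.917 normalized counts, so a difference that small could not be detected. Double-knockdown replicate 3 (double 3) stood apart from its group. Its correlation over tested genes at or above the median level was 0.973 and 0.980 with doubles 1 and 2. With the closest library of another group it was 0.991. SiELOVL5 replicate 3 also stood apart, at 0.956 to 0.959 with its group. It enters the comparison with control through the shared estimate of spread, the filter on low values and the joint normalization, and not through a group mean. The 8 marker genes of kidney carcinoma epithelium summed to 43704 to 46130 in control and 35172 to 45439 in double-knockdown libraries. Of 8 leukocyte markers, 2 were at 0 in all 6 libraries, and the sum was 11.3 to 20.9 in control and 7.33 to 18.7 in double-knockdown libraries. Of the 5 endothelial markers in the table, 1 was at 0 in all 6, and the sums were 3.67 to 13.4 and 5.67 to 11.1. Of 6 fibroblast and pericyte markers, 3 were at 0, and the sums were 102 to 143 and 111 to 128. None of these markers was called. In bulk RNA, fewer cells of a kind and less RNA per cell cannot be told apart.

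Both targets were strongly lowered in every double-knockdown library. ELOVL5 stood at 1939, 1954 and 2038 normalized counts in control replicates 1, 2 and 3, and at 177, 172 and 187 in double-knockdown replicates 1, 2 and 3. The groups were far apart, and the double-knockdown mean was 9.03% of the control mean (log2 difference -3.46, SE 0.09, limma adjusted p = 3.53e-10). ELOVL2 stood at 299, 299 and 211 in control and at 25.4, 26.5 and 19.9 in double-knockdown libraries, or 8.87% of control (-3.43, SE 0.24, adjusted p = 8.97e-06). Control 3 and double 3 were each the lowest of their group. The residual level of each target differed little from that reached with its own siRNA alone. ELOVL2 was at 27.0, 30.1 and 18.4 in siELOVL2 cells, with a difference of -0.05 (SE 0.24, adjusted p = 1). ELOVL5 was at 147, 141 and 156 in siELOVL5 cells, and every double-knockdown library lay above them, by 0.27 on the log2 scale (SE 0.09, adjusted p = 0.143).

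**Figure D1:**
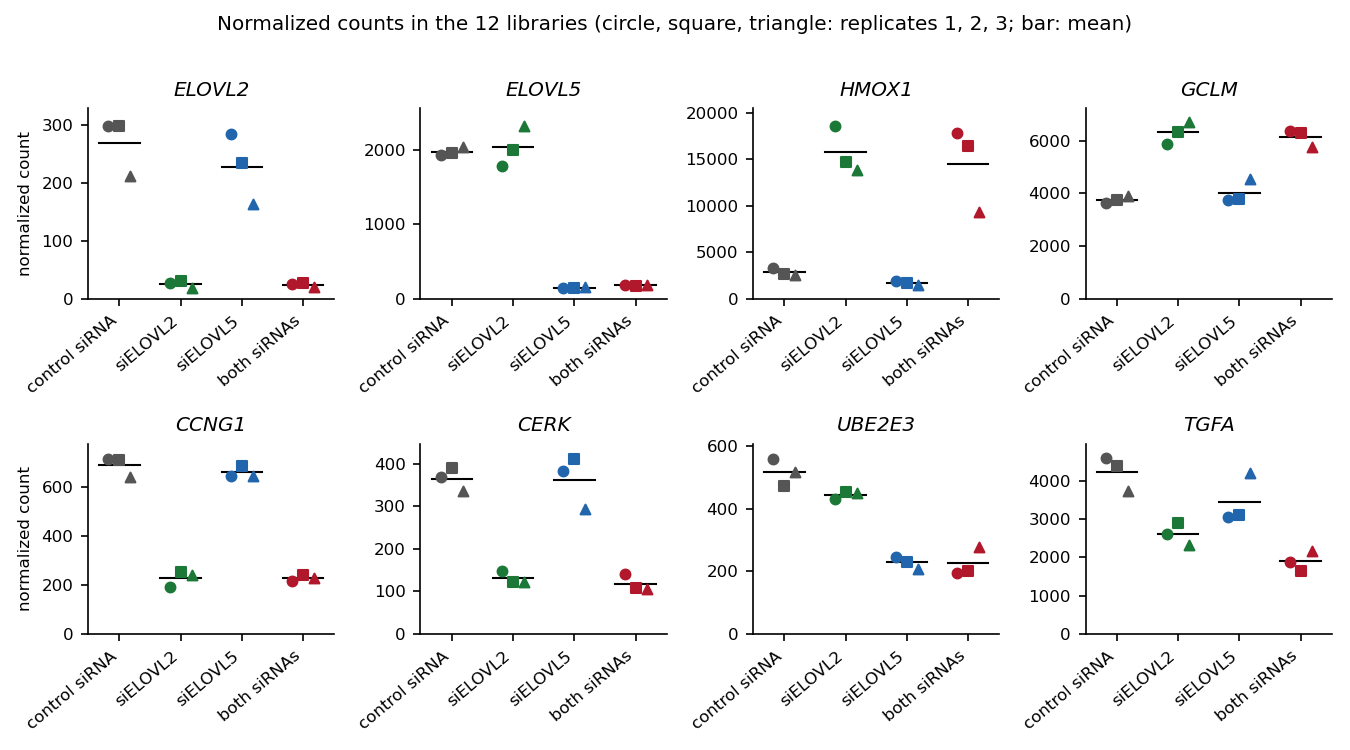
Normalized counts (vertical axes, from 0) of 8 genes in each of the 12 libraries, with 3 replicates per group as circle, square and triangle and the group mean as a bar. ELOVL2, HMOX1, GCLM, CCNG1 and CERK in the double knockdown lie near the siELOVL2 libraries, ELOVL5 and UBE2E3 near the siELOVL5 libraries, and TGFA below both.

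Short words in the 3′ UTR were carried by part of the transcripts that fell, and the windows around them in the 2 targets and in 8 falling transcripts are printed because the results below refer back to them. The words had been chosen in an earlier scan of these same data. Transcripts that fell with the ELOVL2 siRNA gave ACGAATA as well as CACGATA with its overlapping neighbour ACGATAA, while those that fell with the ELOVL5 siRNA gave GAGAGGA. For that reason the counts below carry no test and are no independent support. All words were searched on the transcript strand. Each line is 30 bases of the 3′ UTR, 5′ to 3′ on the transcript strand, read from GENCODE 29 (GRCh38), with the word in capitals. Words of the ELOVL2 siRNA are in
ELOVL2: cggtcatgagcCACGATAaaaaatgccagt
DUSP3: aaaaacccaaaCACGATAaacctttcaaaa
CERK: tttgagaagacACGAATAaagttacttggg
VBP1: cttactgcttaACGAATAactaactactat
MOB1A: tcttttattttACGAATAaaaaatgtattt
DPYSL3: tgcctagctttACGAATAttgctttgtttt
ZNF367: atacgatagttACGAATAatgtgtatgatg
and the word of the ELOVL5 siRNA is in
ELOVL5: caccagtgcgaGAGAGGAtgtatacttttc
COMMD8: attacatggttGAGAGGAaatgcataaaat
UBE2E3: cagtttgtaatGAGAGGAtttccttttacc

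The windows lie at chr6:10982666-10982695 (minus strand) for ELOVL2, chr17:43768388-43768417 (minus strand) for DUSP3 and chr22:46684414-46684443 (minus strand) for CERK. Those of VBP1, MOB1A, DPYSL3 and ZNF367 lie at chrX:155239327-155239356 (plus strand), chr2:74156091-74156120 (minus strand), chr5:147393849-147393878 (minus strand) and chr9:96386662-96386691 (minus strand). For the word of the ELOVL5 siRNA they lie at chr6:53268249-53268278 (minus strand) for ELOVL5, chr4:47451445-47451474 (minus strand) for COMMD8 and chr2:181063333-181063362 (plus strand) for UBE2E3. All lie in annotated 3′ UTR. Whether the words match the guide strands that were transfected was not tested, since the guides are not in the sources used here.

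With both siRNAs, HMOX1 and other heme and antioxidant genes were higher, and most genes of the cell cycle, of the extracellular matrix and of the hypoxia response lay below control. Differences are given on the log2(value + 1) scale throughout, which understates those of low genes. In all, 825 of 18648 tested genes (4.42%) were called, that is, had a limma adjusted p under 0.05. Against that, 17.2% of the hypoxia list, 14.7% of the matrix list, 7.5% of the replication list and 0% of the mitosis list were called. The lists had been chosen with earlier results of these data known. Of the 825, 401 (2.15% of tested genes) were higher and 424 (2.27%) were lower, and 39 rises and 77 falls were at least 2-fold. The median log2 difference of all tested genes was 0.02, and 52.4% lay above 0. At an unadjusted p under 0.05 there were 3505 genes. The p-values set each group difference against the spread within groups, pooled over all 12 libraries. All 825 called genes had groups that did not overlap, as had 4620 tested genes (24.8%). The number called depends on single libraries. It was 330 without control 1, 323 without control 2, 499 without control 3, 393 without double 1, 345 without double 2, 641 without double 3 and 1779 without siELOVL5 3. Of the 825 calls, 254 (97 rises and 157 falls) held whichever 1 of the 12 libraries was left out. Below, a gene whose call ended on leaving out 1 library is given with each such library. Single libraries are named as control, siELOVL2, siELOVL5 or double with the replicate number.

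**Figure D2:**
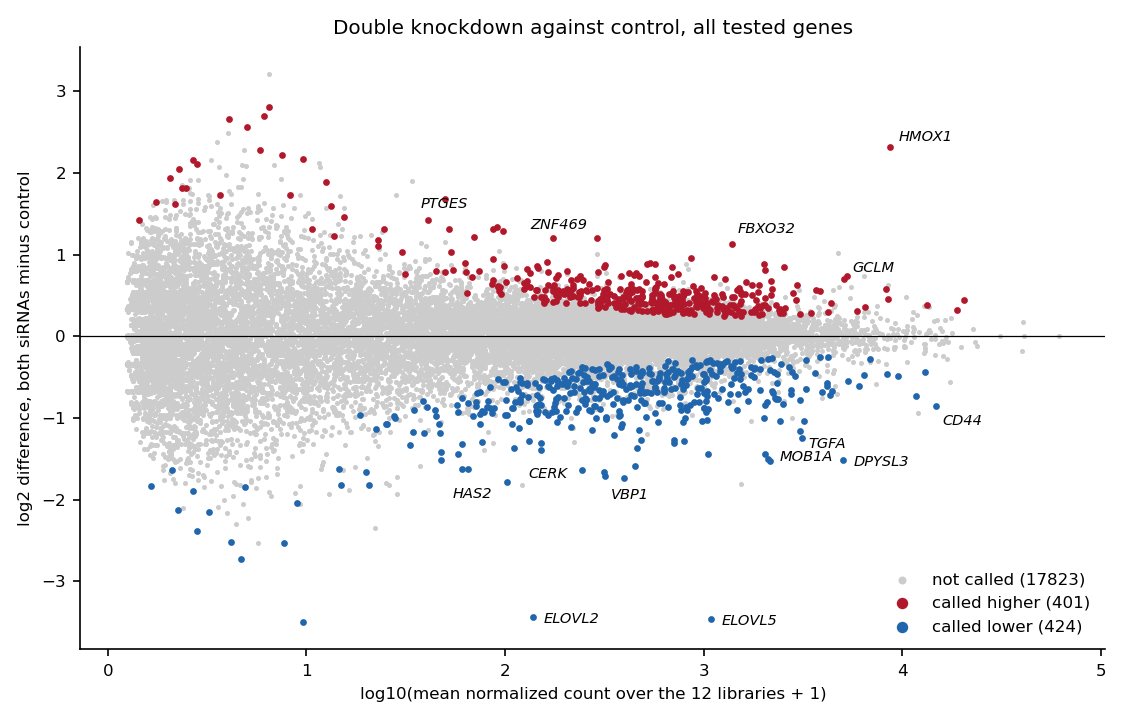
Log2 difference between the double-knockdown and control groups (vertical axis) against the log10 of the mean normalized count over the 12 libraries plus 1 (horizontal axis) for the 18648 tested genes. The 401 genes called higher are red, the 424 called lower are blue and the rest are grey, and ELOVL2, ELOVL5 and HMOX1 stand clear of genes of similar level.

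Among the genes of polyunsaturated fatty acid elongation and desaturation, 2 of 17 tested members were called higher and 2 lower. The 2 falls were the 2 targets, and the list median was 0.06. The share called, the targets included, was 23.5%, against 4.42% of all tested genes. ELOVL1, which elongates saturated and monounsaturated very long chains, stood at 478, 526 and 565 in control and 703, 641 and 658 in double-knockdown libraries, and rose by 0.35 (SE 0.08, adjusted p = 0.0328). FADS3, a member of the desaturase family, rose from 476, 499.6 and 518 to 781, 818 and 884 (0.73, SE 0.17, adjusted p = 0.0288). The groups of both genes did not overlap, but neither call is stable. That of ELOVL1 ended without control 1 or 2, siELOVL2 2, or double 1, 2 or 3 (adjusted p 0.055 to 0.146), and that of FADS3 ended without control 1, 2 or 3 or double 1, 2 or 3 (adjusted p 0.065 to 0.108). The desaturases FADS1 and FADS2, which work in turn with both elongases, were not called. FADS2 stood at 1022, 1551 and 1962 in control and 1123, 1536 and 2544 in double-knockdown libraries. In each group it was lowest in replicate 1 and highest in replicate 3, and the groups overlapped throughout (0.17, adjusted p = 0.854). FADS1 differed by 0.30 (adjusted p = 0.667), ELOVL6, which elongates palmitate, by 0.32 (adjusted p = 0.274) and ELOVL7 by -0.47 (adjusted p = 0.331). ELOVL4 was at 0 in every library.

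Among genes of sterol and saturated fatty acid synthesis the share called was near or below that of all tested genes (4.42%), which says little in lists this short. Of 25 tested cholesterol genes 1 was called (4%), SCAP, the escort protein of the SREBPs, which went from 421, 383 and 388 to 524, 544 and 587 (0.47, SE 0.08, adjusted p = 0.00597). The SREBP retention factor INSIG1 differed by -0.38 (adjusted p = 0.325). The factor genes SREBF1 and SREBF2 differed by 0.31 and 0.07 (adjusted p = 0.591 and 0.877). Of 13 fatty acid synthesis genes 0 were called by limma, 3 had an unadjusted p under 0.05, and 3 were called without siELOVL5 3 and 2 with only the compared libraries fitted or with library weights. ACACB, an acetyl-CoA carboxylase, differed by -0.42 (adjusted p = 0.0831). FASN, the fatty acid synthase, stood at 3586, 4736 and 5983 in control and 4087, 4904 and 6250.4 in double-knockdown libraries. SCD, the stearoyl-CoA desaturase, stood at 6161, 10825 and 14339 and 6942, 9307 and 17859. Both genes were lowest in the library numbered 1 and highest in that numbered 3 in either group, and the groups overlapped (0.10 and 0.09, adjusted p = 0.887 and 0.95). The list medians of the cholesterol and fatty acid synthesis genes, 0.03 and 0.09, turned negative without control 1 (-0.07 and -0.04) or without double 3 (-0.05 and -0.06).

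In fatty acid breakdown, 2 of 25 tested genes were called (8%, against 4.42% of all tested genes), both higher, with a list median of 0.18. HADHB, a subunit of the mitochondrial trifunctional protein, went from 696, 679.7 and 699.7 to 966, 982 and 1081 (0.54, SE 0.08, adjusted p = 0.00303). CPT1A, which moves long acyl chains into mitochondria, went from 542, 516 and 600.5 to 772, 724 and 888 (0.52, adjusted p = 0.0185), and its call ended without control 1 or 2 or double 1 or 3 (adjusted p 0.053 to 0.0949). None of the 21 lipid droplet and triglyceride genes was called by limma, with 4 at an unadjusted p under 0.05. Among them PLIN2, the main droplet coat protein, stood at 5480.2, 4754 and 4967 and 3586, 3471 and 4432, below control in all 3 libraries (-0.41, adjusted p = 0.0545). BSCL2, the droplet assembly factor seipin, differed by 0.74 (adjusted p = 0.0745). PLIN2 was called lower with the filter on low values at 10 (adjusted p = 0.0406), with only the compared libraries fitted (0.0483), with library weights (0.00276), and without siELOVL5 1, siELOVL5 3 or double 3 (0.0497, 0.0119 and 0.0185). The lipid droplet count was 3 without siELOVL5 3 or with library weights, 2 without double 3 or with only the compared libraries fitted, and 1 without siELOVL5 1 or double 2 or with that filter. Of 23 phospholipid genes 1 was called (4.35%, against 4.42% of all tested genes). AGPAT3, an acyltransferase that can place polyunsaturated chains into phospholipids, rose by 0.43 from 1242, 1385 and 1447 to 1832, 1854 and 1789 (adjusted p = 0.0231). That call ended without control 1 or 2 or double 1 or 2 (adjusted p 0.0739 to 0.108), and 3 genes of the list were called without siELOVL5 3.

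Sphingolipid genes moved in both directions, 2 of 25 higher and 3 lower, with a median of 0.08. The share called was 20%, against 4.42% of all tested genes. CERK, the kinase that makes ceramide 1-phosphate, fell most, from 369, 391 and 335 to 141, 107 and 106 (-1.63, SE 0.15, adjusted p = 1.15e-04). SPTLC2, a subunit of the enzyme that starts sphingolipid synthesis, fell by 0.51 (adjusted p = 0.0306), and the ceramide synthase CERS6 fell by 0.43 (adjusted p = 0.0326). SGPL1, the lyase that ends the pathway by splitting sphingosine 1-phosphate, rose from 794, 811 and 834 to 1466, 1449.9 and 1144 (0.73, adjusted p = 0.00157). The calls of CERK and SGPL1 held under every alternative run. That of SPTLC2 ended without control 2 or 3 or double 1 or 2 (adjusted p 0.0967 to 0.13), and that of CERS6 ended without control 1, 2 or 3, siELOVL2 2, or double 1, 2 or 3 (adjusted p 0.0514 to 0.138). Of 17 prostaglandin genes 2 were called (11.8%, against 4.42% of all tested genes), both higher, while 10 lay below control (median -0.03). PTGES, which makes prostaglandin E2, went from a low 24.6, 24.0 and 18.1 to 49.8, 63.3 and 70.3 (1.42, SE 0.27, adjusted p = 0.0115), a call that ended without double 2 (adjusted p = 0.0534). PTGR1, a prostaglandin reductase, rose by 0.54 (adjusted p = 0.0148), which ended without control 1 or 2 (adjusted p 0.0759 to 0.0796). The count of the list was 4 without siELOVL5 3.

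HMOX1, the heme oxygenase that opens the heme ring and frees iron, showed the largest rise among genes at or above the median level. It stood at 3298, 2655 and 2508 in control and at 17859, 16379 and 9307 in double-knockdown libraries, a ratio of means of 5.15 (log2 2.32, SE 0.21, adjusted p = 1.14e-04). Every double-knockdown library lay above every control, and double 3 held the lowest value of its group. Around it, 5 of 20 tested heme and iron genes were called (25%, against 4.42% of all tested genes). All 5 were higher, and the list median was 0.17. POR, the reductase that supplies electrons to heme oxygenase and cytochrome P450 enzymes, rose from 1712, 1759 and 1987 to 3053, 3169 and 3614 (0.85, SE 0.10, adjusted p = 4.73e-04). SLC48A1, which carries heme across endosomal membranes, rose from 285, 349 and 336 to 555, 566 and 505 (0.75, adjusted p = 0.00174), and the iron importer SLC11A2 rose by 0.38 (adjusted p = 0.00586). FTL, the light chain of the iron store ferritin, rose by 0.44 (adjusted p = 0.026), a call that ended without control 1 or 2 or double 1, 2 or 3 (adjusted p 0.0584 to 0.118). The heavy chain gene FTH1 was at 11070.4, 10102 and 9636 and 12944, 12287 and 12706, above control in all 3 libraries and not called (adjusted p = 0.0556). BACH1, the heme-sensing repressor of HMOX1, stood at 1132, 1298 and 1289 in control and 796, 795 and 989.9 in double-knockdown libraries. The groups did not overlap, but the difference of -0.53 was not called (SE 0.23, adjusted p = 0.226). In siELOVL5 libraries 1, 2 and 3 BACH1 was at 1515, 1643 and 3345, and without siELOVL5 3 the same difference was called lower (adjusted p = 0.00638), as it was with only the compared libraries fitted (0.0194) and with library weights (0.00904). The heme list held 8 called genes without siELOVL5 3, 7 with only the compared libraries and 9 with library weights.

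Genes driven by NRF2, the oxidant-responsive transcription factor, lay mostly above control. Of 26 tested members, 25 lay above control (96.2%, against 52.4% of all tested genes). Called were 6 (23.1%, against 4.42% of all tested genes), all higher. The list median was 0.33, against 0.02 for all tested genes. The median deviation of the list from the control mean was -0.08, -0.02 and 0.12 in controls 1, 2 and 3 and 0.24, 0.30 and 0.47 in doubles 1, 2 and 3. Besides HMOX1 and SLC48A1, GCLM, the modifier subunit of glutamate-cysteine ligase, which makes the precursor of glutathione, went from 3628, 3754 and 3911 to 6378, 6302 and 5748 (0.71, SE 0.09, adjusted p = 7.14e-04). GCLC, its catalytic subunit, rose by 0.42 (adjusted p = 0.0123). NQO1, a quinone reductase, went from 7282, 6731 and 8146 to 10213, 9892 and 10102 (0.45, adjusted p = 0.0095). The call of NQO1 ended without control 2 (adjusted p = 0.0608) and that of GCLC ended without control 1 or 2 or double 2 (adjusted p 0.0559 to 0.065). The list held 3 called genes without control 2 and 11 without siELOVL5 3. The 1 member below control was ABCC2, an export pump, at 2874, 3076 and 3791 and 1486, 1596 and 2712 (adjusted p = 0.0618). The transcript of NRF2 itself, NFE2L2, was not called (2034, 2032 and 2065 against 2159.8, 2109 and 2149.7, adjusted p = 0.85), and that of its inhibitor KEAP1 differed by 0.07 (adjusted p = 0.655).

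NRF2 binds the antioxidant response element, whose core TGACNNNGC was searched on both strands in the 250 bases before the RefSeq starts (GRCh38.p14). It was found in 6 of 23 promoters of the list (26.1%) and in 3830 of 35116 promoters in all (10.9%). Counted by gene, 5 of the 19 list genes with a promoter entry had it in at least 1 promoter. The 5 are GCLM, KEAP1, ME1, PGD and TXNRD1, and GCLM is the 1 called gene among them. Its promoter is printed as that of the called gene that holds the core. It lies at chr1:93909431-93909680 on the minus strand and is given 5′ to 3′ in the direction of transcription, with the match, which reads on the opposite strand, in capitals 34 bases before the start.
GCLM promoter: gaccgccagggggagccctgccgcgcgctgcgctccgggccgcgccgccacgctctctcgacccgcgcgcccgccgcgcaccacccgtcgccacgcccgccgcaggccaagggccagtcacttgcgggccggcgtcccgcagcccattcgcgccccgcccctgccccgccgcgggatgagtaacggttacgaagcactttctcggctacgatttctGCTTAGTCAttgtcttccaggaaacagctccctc
The match is a description of these letters, and binding at it was not measured.

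Of 17 tested ferroptosis genes, which govern death by lipid peroxidation, 2 were called (11.8%, against 4.42% of all tested genes), both higher. Above control lay 13 (76.5%, against 52.4% of all tested genes). GPX4, the enzyme that reduces lipid peroxides and holds ferroptosis in check, rose from 842, 757 and 726 to 1152, 1106 and 1060.5 (0.51, SE 0.08, adjusted p = 0.00447). POR, the other called member, is known to promote lipid peroxidation. The count was 4 without siELOVL5 3. Lysosome genes were also mostly above control, 28 of 33 (84.8%, against 52.4% of all tested genes), with a median of 0.18. Of them 4 were called higher and 1 lower (15.2%, against 4.42% of all tested genes). NEU1, the lysosomal sialidase, rose from 457, 462 and 508 to 899, 813 and 855 (0.85, SE 0.10, adjusted p = 5.59e-04), and SQSTM1, an autophagy receptor and NRF2 target, rose from 7084, 6094 and 6505 to 10736, 10102 and 8612 (0.58, adjusted p = 0.00654). Another called rise was that of the proton pump gene ATP6V0D1 (0.42, adjusted p = 0.0103), whose call ended without control 2 or double 2 (adjusted p 0.0524 to 0.0596). ATP6V1A, a subunit of the same pump, went the other way, from 2017, 2129 and 2135 to 1461, 1383 and 1619.9 (-0.50, adjusted p = 0.00233).

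Among stress responses outside the NRF2 group, the share of genes called was 8.33% for the ATF4 and integrated stress response, 9.09% for the endoplasmic reticulum, 6.06% for the p53 list and 8% for the BCL2 family, against 4.42% of all tested genes. These shares are 2 called genes in each list. Of 24 genes of the ATF4 and integrated stress response 1 rose and 1 fell. CEBPB, a transcription factor, rose by 0.50 (adjusted p = 0.0446), and PHGDH, the first enzyme of serine synthesis, fell by 0.45 (adjusted p = 0.0426). The call of CEBPB ended without control 1, 2 or 3, siELOVL2 1, 2 or 3, siELOVL5 2, or double 1, 2 or 3 (adjusted p 0.0514 to 0.162) and that of PHGDH ended without control 1, 2 or 3, siELOVL2 2 or 3, siELOVL5 1, or double 1 or 3 (adjusted p 0.052 to 0.157). Of 22 genes of the endoplasmic reticulum 2 were called, both lower. These were the chaperone gene PDIA4 (-0.27, adjusted p = 0.0288) and the stress inhibitor gene DNAJC3 (-0.31, adjusted p = 0.0418). PDIA4 was lost without control 1, 2 or 3, siELOVL2 2, or double 1 or 2 (adjusted p 0.0533 to 0.103) and DNAJC3 without control 1, 2 or 3, siELOVL2 2, siELOVL5 1 or 2, or double 1, 2 or 3 (adjusted p 0.0507 to 0.156). In the p53 list, 25 of 33 genes lay above control, but 1 was called higher and 1 lower. CDKN1A, the p53 target that arrests the cycle, stood at 2727, 2497 and 2425 and 3642, 3209.6 and 2817 and was not called (adjusted p = 0.24). Without siELOVL5 3 the p53 list held 7 rises and 1 fall. In the BCL2 family, the killer proteins BCL2L11 and BAK1 rose by 0.54 and 0.50 (adjusted p = 0.00728 and 0.0409), 2 of 25 genes tested. The call of BAK1 ended without control 1, 2 or 3, siELOVL2 2, or double 1, 2 or 3 (adjusted p 0.0662 to 0.154).

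The genes of mitosis and G2/M lay below control in 39 of 40 cases, with a median of -0.57, yet 0 of the 40 were called by limma. For 26 of them the 3 double-knockdown libraries all lay below the 3 controls, and 21 had an unadjusted p under 0.05. Over all 18648 tested genes, 2129 lay below the 3 controls in this way, and 3505 had an unadjusted p under 0.05 in either direction. The libraries of each group spread widely. The list median was 0.16, 0.05 and -0.20 in controls 1, 2 and 3 and -0.40, -0.31 and -1.03 in doubles 1, 2 and 3, and double 3 was the lowest. MKI67, the proliferation marker Ki-67, stood at 5785, 5247 and 4617 in control and 3293, 3614 and 2456 in double-knockdown libraries (-0.75, SE 0.26, adjusted p = 0.135). NCAPG, a condensin subunit, differed by -0.65 (adjusted p = 0.054) and UBE2C, a ubiquitin enzyme of mitotic exit, by -0.62 (adjusted p = 0.0546). The number called, all lower, was 15 without siELOVL5 3, 11 when only the 6 compared libraries were fitted, 11 with library weights (less reliable libraries counting for less), 2 under TMM scaling, 2 with the filter on low values at 10, and 1 without siELOVL5 1. NCAPG and UBE2C were called under TMM scaling (adjusted p = 0.0403 and 0.0409) and with that filter (0.0445 and 0.0451). The number called was 9 without siELOVL5 3 and double 3 together. With the replicate number as a block it was higher than in any of these fits, as given further below. The list median was -0.34 without double 3. In the siELOVL2 and siELOVL5 groups, which share the control libraries, the median of this list was -0.42 and -0.41.

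DNA replication and G1/S genes lay below control in 35 of 40 cases (median -0.36), with 1 called higher and 2 lower. CDC45 and GINS2, subunits of the replicative helicase, fell by 0.66 and 0.47 (adjusted p = 0.0193 and 0.0359). CCNE1, the cyclin that starts S phase, rose from 203, 214 and 250 to 331, 336 and 322 (0.57, SE 0.10, adjusted p = 0.00651). E2F5, a repressive E2F factor, rose from 83.2, 87.1 and 92.3 to 152, 163 and 152 (0.82, adjusted p = 0.00656). CDK2, the kinase partner of cyclin E, fell from 249.6, 267 and 245 to 135, 153 and 163 (-0.75, adjusted p = 0.0103), CDK4 fell by 0.31 (adjusted p = 0.0417), and cyclin D1, CCND1, fell by 0.44 (adjusted p = 0.0373). In that list of E2F factors, CDK inhibitors and pocket proteins 2 of 22 genes were higher and 3 lower. The share called was 22.7%, against 4.42% of all tested genes. The rises of CCNE1 and E2F5 held under every alternative run. The fall of CDC45 ended without control 1 or 3 or double 1 or 3 (adjusted p 0.0549 to 0.0824), that of GINS2 without control 2 or 3, siELOVL2 2, or double 1, 2 or 3 (adjusted p 0.0592 to 0.136) and that of CDK2 without control 2 or double 1 (adjusted p 0.0509 to 0.057). The fall of CDK4 ended without control 1, 2 or 3, siELOVL2 2 or 3, siELOVL5 2, or double 1, 2 or 3 (adjusted p 0.0537 to 0.155), and that of CCND1 without control 1, 2 or 3, siELOVL2 2 or 3, siELOVL5 2, or double 1 or 2 (adjusted p 0.0507 to 0.127). Without siELOVL5 3 there were 22 falls and 1 rise among the replication genes (19 falls with only the compared libraries fitted), and 6 falls and 3 rises in the E2F list. Replication-dependent histone genes lay below control in 20 of 22 cases (median -0.42). Of them 2 were called (9.09%, against 4.42% of all tested genes), both lower, HIST1H3A (-0.93) and HIST1H1D (-0.80). Near-identical histone copies make single values uncertain. The fall of HIST1H3A ended without control 1 or 2 or double 1 or 3 (adjusted p 0.0544 to 0.086), and that of HIST1H1D without control 1, 2 or 3, siELOVL2 1, 2 or 3, siELOVL5 1, or double 1 or 3 (adjusted p 0.0502 to 0.147), and 10 histone genes were called lower without siELOVL5 3.

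In the list of targets of the hypoxia-inducible factors, which also holds the subunit gene HIF1A, 5 of 29 were called, all lower. Of the 29, 21 lay below control (median -0.33). TGFA, the EGFR ligand transforming growth factor alpha, fell from 4583, 4375 and 3739 to 1884, 1647 and 2167 (-1.16, SE 0.14, adjusted p = 5.72e-04). EGLN1, the prolyl hydroxylase that marks HIF for degradation, fell from 1223, 1267 and 1289.7 to 756, 785 and 726 (-0.74, adjusted p = 1.96e-04). LDHA, lactate dehydrogenase, went from 9443, 9892 and 9535 to 6587, 6705 and 7637 (-0.47, adjusted p = 0.00331) and HIF1A from 1980.2, 2084 and 2119 to 1502, 1530.3 and 1701 (-0.39, adjusted p = 0.00772). The call of CCND1, the fifth, ended on leaving out several libraries, as given above. EPAS1, which encodes HIF2-alpha, the main HIF subunit of this carcinoma, was not called, at 1486, 1508 and 1563 and 1363, 1385 and 1724 (adjusted p = 0.968). The glycolytic genes were not all lower. PGK1, ALDOA and ENO1 differed by 0.01, 0.05 and 0.05, and the glucose transporter gene SLC2A1 by -0.05, none of them called. NDRG1, a hypoxia marker, split the group, at 6319, 8039.6 and 8786 in control and 3958, 4154 and 8039.6 in double-knockdown libraries. The list median was -0.30, -0.39 and 0.05 in doubles 1, 2 and 3, so double 3 lay near the controls. The list held 9 falls without siELOVL5 3.

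Mesenchymal and matrix genes fell in 5 of 34 cases and rose in none, with 25 below control and a median of -0.17. CD44, the receptor for hyaluronan, went from 21782, 18195 and 18195 to 11988, 10213 and 9892 (-0.86, SE 0.13, adjusted p = 0.00285). CDH2, N-cadherin, went from 2877, 3026 and 2749 to 1669, 1700.4 and 1726 (-0.76, adjusted p = 1.77e-04). Fibronectin, FN1, fell by 0.73 (adjusted p = 0.0219), thrombospondin 1, THBS1, by 0.70 (adjusted p = 0.0377) and collagen COL5A1 by 0.44 (adjusted p = 0.0182). HAS2, which synthesizes hyaluronan, showed the largest fall after the 2 targets among genes at or above the median level, from 249, 152 and 137 to 64.8, 69.2 and 27.2 (-1.78, SE 0.45, adjusted p = 0.0426). The calls of CD44 and CDH2 held under every alternative run. Those of FN1, THBS1 and COL5A1 ended without control 1, 2 or 3 or double 1 or 2 (adjusted p 0.0543 to 0.107), without control 1 or 2, siELOVL2 2, siELOVL5 2, or double 1, 2 or 3 (adjusted p 0.0507 to 0.159) and without control 2 or 3 or double 1 or 2 (adjusted p 0.0514 to 0.0956). HAS2 was lost without control 1, 2 or 3, siELOVL2 2, siELOVL5 2, or double 1, 2 or 3 (adjusted p 0.0555 to 0.171). The list held 2 falls without control 2, double 1 or double 2, 3 without control 1 or control 3, and 10 without siELOVL5 3. Of the 24 TGF-beta genes, 2 were called (8.33%, against 4.42% of all tested genes), both lower. These were the feedback genes PMEPA1, from 2036, 2299.8 and 1720.3 to 1016, 1046 and 1149 (-0.91, adjusted p = 5.10e-04), and SKIL (-0.47, adjusted p = 0.00563). Of 20 Hippo genes 2 fell and 1 rose (15% called, against 4.42% of all tested genes). MOB1A, a scaffold of the LATS kinases, went from 3209.6, 3214 and 3086 to 954, 1036 and 1357 (-1.52, SE 0.12, adjusted p = 3.69e-05). WWTR1, the co-activator TAZ, fell by 0.38 (adjusted p = 0.0137) and AMOTL2, a YAP target that binds YAP, rose by 0.56 (adjusted p = 0.048). The call of WWTR1 ended without control 2 or double 2 (adjusted p 0.0724 to 0.0778), and that of AMOTL2 without control 1, 2 or 3, siELOVL2 1, 2 or 3, siELOVL5 1, or double 1 or 2 (adjusted p 0.0522 to 0.163). None of 22 kidney and proximal tubule genes was called by limma, with 3 at an unadjusted p under 0.05 and 1 call without siELOVL5 1 or siELOVL5 3. KRT19, a simple-epithelium keratin, stood at 63.4, 67.2 and 52.2 and 31.8, 39.6 and 34.0 (adjusted p = 0.0627), and LHX1, a nephron patterning factor, differed by 0.29 (adjusted p = 0.175).

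Growth-factor signalling genes changed in both directions. The share called was 19.2% of the insulin list, 6.67% of the STAT3 list, 7.69% of the EGFR list and 4.17% of the immediate early list. Over all tested genes it was 4.42%. Each share other than that of the insulin list is 1 called gene. In the insulin receptor, FOXO and AKT list, 2 of 26 rose and 3 fell. INSR, the insulin receptor, rose from 184, 231 and 242 to 359, 389.8 and 430 (0.85, SE 0.14, adjusted p = 0.00487), and FBXO32, a ubiquitin ligase subunit induced by FOXO factors, rose from 836, 842 and 829 to 2203, 1919 and 1456 (1.13, adjusted p = 0.0101). EIF4EBP2, a translation repressor controlled by mTOR, fell from 1353, 1323 and 1423 to 994, 904 and 1029 (-0.49, adjusted p = 0.00347). IRS1, the docking protein of the insulin receptor, fell by 0.51 (adjusted p = 0.0272), and TXNIP, an inhibitor of thioredoxin, fell by 1.05 (adjusted p = 0.048). The call of FBXO32 ended without double 1 (adjusted p = 0.0509), that of IRS1 without control 1, 2 or 3 or double 2 or 3 (adjusted p 0.0693 to 0.101) and that of TXNIP without control 1, 2 or 3, siELOVL2 1, 2 or 3, or double 1 or 2 (adjusted p 0.0607 to 0.164). The list held 3 calls without control 1, control 2, control 3, double 1 or double 2, and 9 without siELOVL5 3. STAT3, the factor downstream of gp130 receptors, was the 1 called gene among 15 of its pathway, at 3242, 3070.2 and 3126 in control and 4690.3, 4612 and 4521 in double-knockdown libraries (0.55, SE 0.06, adjusted p = 2.54e-04). A second gene of that list was called without siELOVL5 3. TGFA was the 1 called gene among 13 EGFR ligands and ERBB receptors, with 1 further rise without siELOVL5 3 or double 3. PHLDA1 was the 1 called gene of 24 immediate early genes, falling from 4026, 3053 and 2669.7 to 2138, 1623 and 1100.2 (-1.03, adjusted p = 0.0359). That call ended without control 1, 2 or 3, siELOVL2 2, or double 2 or 3 (adjusted p 0.0505 to 0.153), and 3 genes of the list were called without siELOVL5 3.

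Interferon-stimulated genes gave 1 call among 44 (2.27%, against 4.42% of all tested genes), and 34 lay above control (median 0.14). The called gene was STAT2, a subunit of the interferon-activated factor ISGF3, from 951, 847 and 985 to 1423, 1125 and 1231 (0.44, SE 0.11, adjusted p = 0.0351), and its call ended without control 1, 2 or 3, siELOVL2 2, or double 1 or 3 (adjusted p 0.0532 to 0.15). The libraries did not move together. The list median was 0.20, -0.34 and 0.19 in controls 1, 2 and 3 and 0.51, -0.01 and -0.05 in doubles 1, 2 and 3, and the difference turned to -0.04 without control 2 and to -0.01 without double 1. MX1, an antiviral GTPase, stood at 2538, 1049 and 2456 in control and 3376, 1901 and 1504 in double-knockdown libraries (adjusted p = 0.854). ISG15, IFIT1 and IRF9 were not called either, at 0.30, 0.69 and 0.12 (adjusted p = 0.647, 0.477 and 0.844). In siELOVL5 cells the same list had a median of 0.76 against the same controls, and in siELOVL2 cells -0.12. Of 16 genes of MHC class I presentation 1 was called (6.25%), higher. Of 25 inflammatory genes 1 was called (4%), TNFAIP2 (0.63, adjusted p = 0.0447). The call of TNFAIP2 ended without control 1, 2 or 3, siELOVL2 1, 2 or 3, or double 1, 2 or 3 (adjusted p 0.0522 to 0.171). Without siELOVL5 3, 4 MHC genes and 3 interferon-stimulated genes were called. Sensors of foreign nucleic acid gave 0 of 19 calls by limma, with 4 at an unadjusted p under 0.05 and 1 call without siELOVL5 3. The DNA-sensing genes TMEM173 (STING) and MB21D1 (cGAS) differed by 0.42 and -0.51 (adjusted p = 0.0996 and 0.19).

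In the RNA interference machinery, which siRNAs themselves use, 2 of 13 genes were called (15.4%, against 4.42% of all tested genes), both lower. The list as a whole was not lower, with 9 of 13 genes above control and a median of 0.14. DICER1, the nuclease that cuts small RNA precursors, fell from 1236, 1323 and 1181 to 822, 779.6 and 715 (-0.69, SE 0.11, adjusted p = 0.00323). AGO3, an Argonaute protein, fell by 0.53 (adjusted p = 0.0356), a call that ended without control 1, 2 or 3, siELOVL2 2, or double 1, 2 or 3 (adjusted p 0.0573 to 0.142). Without siELOVL5 3 there were also 2 rises. Among genes of basic cell functions, none of 37 nuclear-encoded respiratory chain genes, 13 mitochondrial transcripts or 39 ribosomal protein genes was called by limma. There were 7, 1 and 0 at an unadjusted p under 0.05, and 2, 1 and 0 called without siELOVL5 3. The respiratory chain genes lay above control in 31 of 37 cases with a median of 0.11, and the ribosomal protein genes had a median of 0.02. Their members with the smallest p were NDUFA1 and COX5B of the respiratory chain (0.31 and 0.23, adjusted p = 0.0549 and 0.174), the mitochondrial MT-ND6 and MT-ND1 (0.60 and 0.18, adjusted p = 0.155 and 0.566), and the ribosomal RPL27 and RPL11 (-0.13 and 0.16, adjusted p = 0.403 and 0.43). Ribosomal protein and mitochondrial genes have many copies in the genome, so their single values are uncertain.

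**Figure D3:**
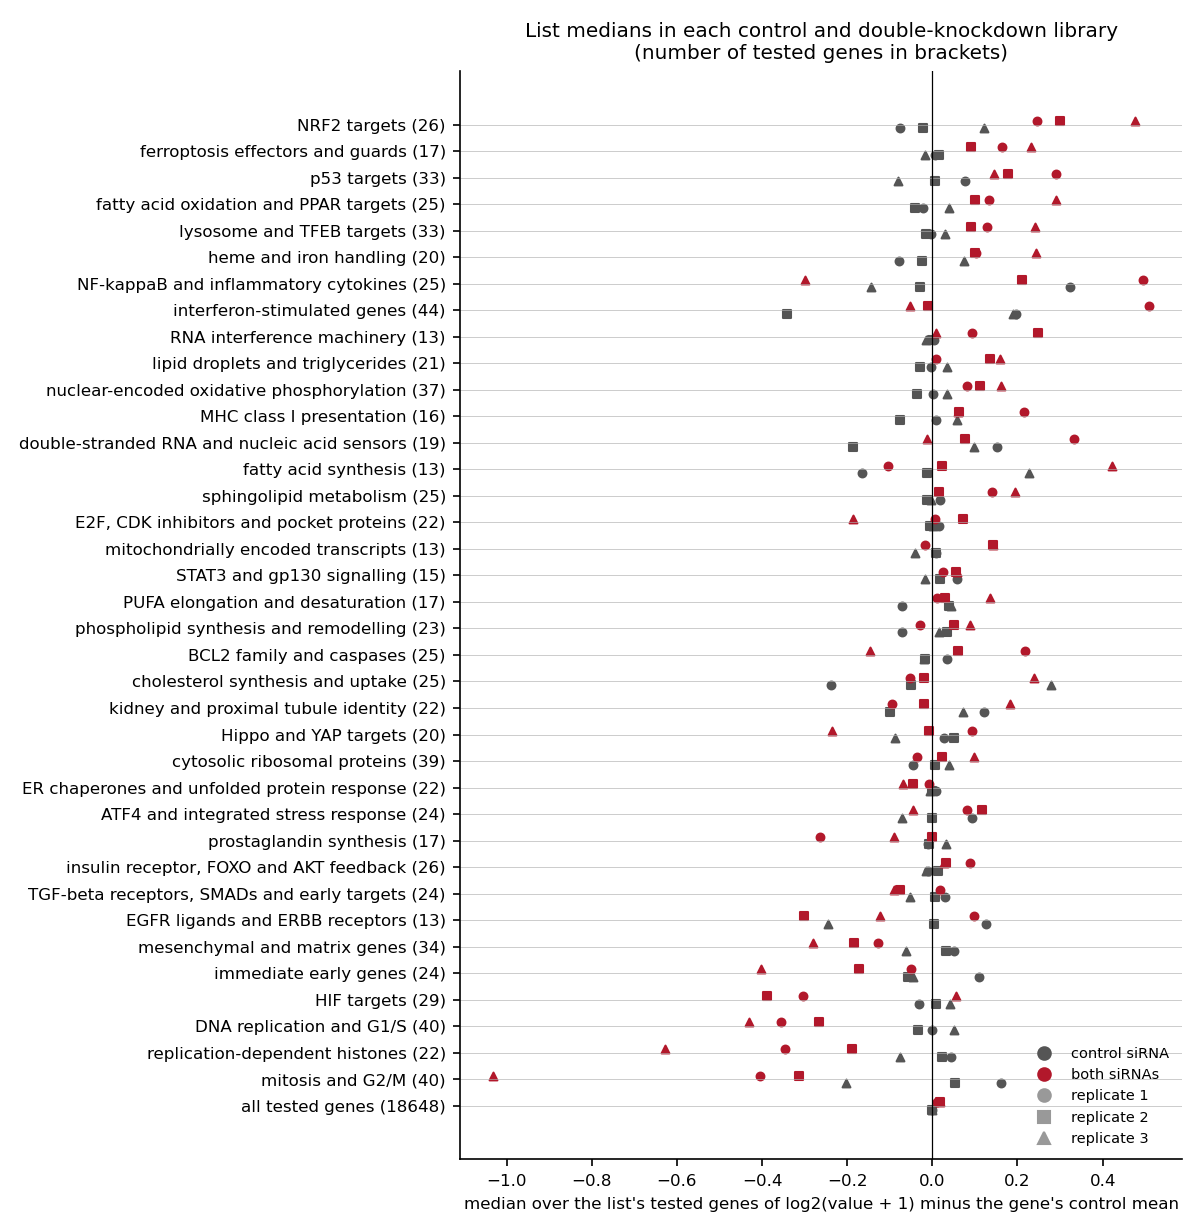
Median over the tested genes of each list of log2(value + 1) minus the gene's control mean (horizontal axis), in each control (grey) and double-knockdown (red) library. In the double-knockdown libraries the NRF2 list lies at 0.24 to 0.47 and the mitosis list at -1.03 to -0.31, with double 3 at the far end of both, while the HIF list is at -0.39 and -0.30 in doubles 2 and 1 and at 0.05 in double 3.

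The largest changes among genes at or above the median level included several outside these lists. The falls after ELOVL5, ELOVL2 and HAS2 were led by VBP1, a prefoldin subunit, from 589, 608 and 635 to 176, 157 and 219.6 (-1.74, SE 0.14, adjusted p = 3.69e-05). HMGB3, a chromatin protein, fell by 1.71, and is uncertain because many pseudogenes resemble it. ZNF367, a zinc finger factor, went from 589, 467 and 419 to 137, 211 and 124 (-1.66, adjusted p = 0.00233). CCNG1, which encodes cyclin G1, went from 712, 708 and 638 to 215, 238 and 229 (-1.59, adjusted p = 8.97e-06), with groups far apart. DPYSL3, a cytoskeletal protein, went from 8708, 8929 and 7032 to 2652, 3012 and 2949.7 (-1.51, adjusted p = 1.77e-04). PEG10, a gene of retrotransposon origin, and SIPA1L2, a GTPase-activating protein gene, fell by 1.50 and 1.44. B4GALT1, a galactosyltransferase, went from 4251, 4275 and 4078 to 1676, 1629 and 2036 (-1.25, adjusted p = 8.97e-06), and DUSP3, a protein phosphatase, from 1585, 1411 and 1329.6 to 494, 514 and 589 (-1.44, adjusted p = 8.97e-06). The falls in this paragraph, HAS2 aside, held under every alternative run.

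The rises beside HMOX1 were smaller. ZNF469, a zinc finger gene, went from 193, 176 and 160.5 to 467, 421 and 345 (1.21, SE 0.12, adjusted p = 1.87e-04). PSKH1, a kinase gene, went from 83.6, 114 and 152 to 256, 234 and 296 (1.20, adjusted p = 0.00422). SLCO2B1, an uptake transporter of organic anions, went from 529, 625 and 551 to 1144, 1183 and 998 (0.96, adjusted p = 2.54e-04). The monocarboxylate transporter SLC16A13 rose by 0.91, the amino acid transporter SLC43A2 by 0.88 and the carboxypeptidase CPA4 by 0.88. The long non-coding RNA gene RP11-91K9.1 was called at 1.29, the tight junction gene CLDN4 at 0.90, the chemokine receptor gene ACKR3 at 0.89 and the kinase gene MKNK2 at 0.89. The last 4 calls are fragile. RP11-91K9.1 was lost without control 2 or 3 or double 1, 2 or 3 (adjusted p 0.0532 to 0.0949), CLDN4 without control 1, 2 or 3 or double 1 or 2 (adjusted p 0.056 to 0.0765), ACKR3 without control 1, 2 or 3, siELOVL2 1, 2 or 3, siELOVL5 2, or double 1, 2 or 3 (adjusted p 0.0604 to 0.192) and MKNK2 without control 1 or 2 or double 2 or 3 (adjusted p 0.0537 to 0.088). The other rises named here held under every alternative run.

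Set beside the single knockdowns, several named genes of the double knockdown stood near the value of 1 of the siRNAs and others lay beyond both. The 3 differences share the control libraries, so their values are given side by side only. For HMOX1 the log2 difference from control was 2.48 in siELOVL2, -0.76 in siELOVL5 and 2.32 in double-knockdown cells. For GCLM the 3 values were 0.75, 0.10 and 0.71, for CCNG1 -1.59, -0.06 and -1.59, and for CDH2 -0.73, 0.12 and -0.76. These double-knockdown values lie near those of siELOVL2. Other genes lay near the siELOVL5 value. UBE2E3, a ubiquitin-conjugating enzyme, had values of -0.21, -1.17 and -1.21, DICER1 of -0.10, -0.60 and -0.69, and CPA4 of 0.27, 0.90 and 0.88. A further set lay to the same side of control with each siRNA and farthest from it with both. TGFA had -0.70, -0.30 and -1.16, PMEPA1 -0.56, -0.50 and -0.91, DPYSL3 -1.19, -0.63 and -1.51, and SLCO2B1 0.62, 0.63 and 0.96. None of TGFA, PMEPA1, DPYSL3 and SLCO2B1 was called against siELOVL2. A double-knockdown mean beyond both single means was common among genes called against control, in 358 of 424 falls and 359 of 401 rises. Other double-knockdown values lay between those of the single knockdowns. FBXL16, an F-box protein gene, had 0.15, -1.16 and -0.46, LEPROTL1 0.21, -0.96 and -0.50, and EIF4EBP2 0.14, -0.80 and -0.49. LEPROTL1 and EIF4EBP2 were called higher than in siELOVL5 cells (0.46 and 0.31, limma adjusted p = 0.0110 and 0.0473). Whether these calls hold with a library left out was not tested. HMOX1 stood at 18624, 14723 and 13851 in siELOVL2 libraries, a range that the double-knockdown libraries overlap.

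**Figure D4:**
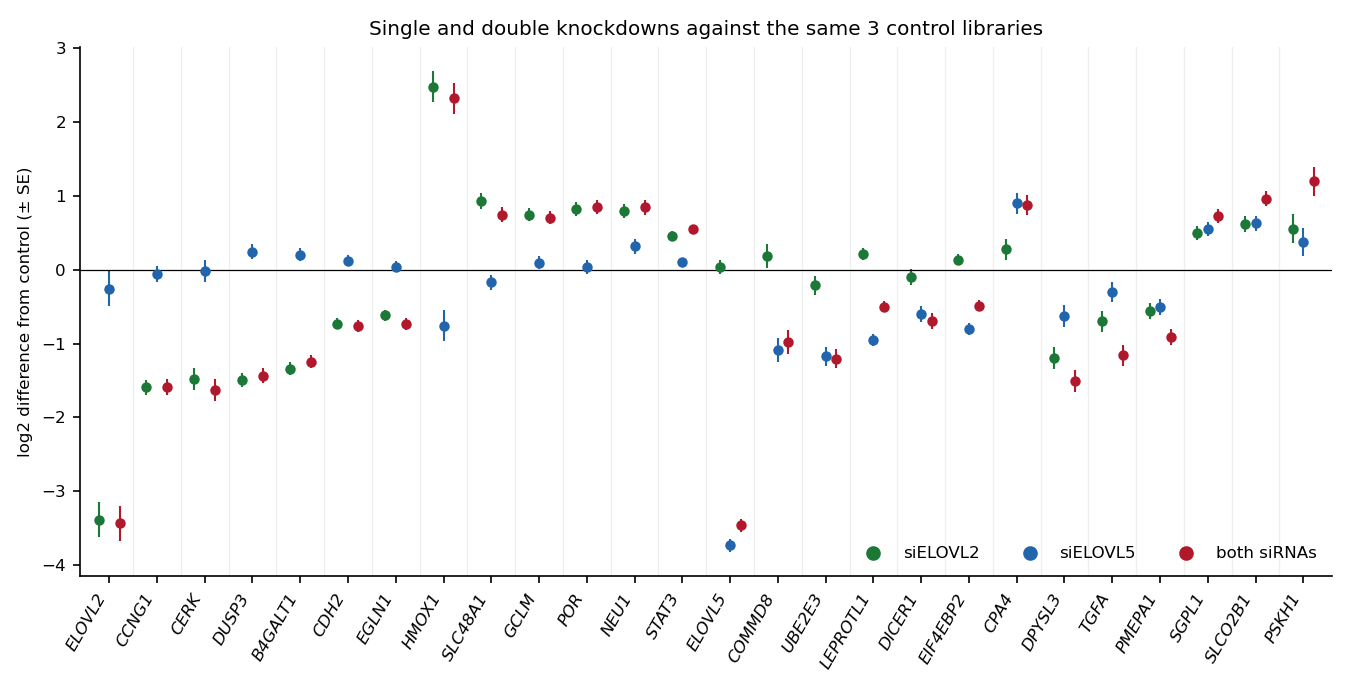
Log2 difference from the same 3 control libraries (vertical axis, bars are SE) of 26 genes in siELOVL2 (green), siELOVL5 (blue) and double-knockdown (red) cells, 3 libraries each. CCNG1, HMOX1 and GCLM of the double knockdown lie near the siELOVL2 values, COMMD8, UBE2E3 and DICER1 near the siELOVL5 values, and TGFA and PMEPA1 beyond both.

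Against siELOVL2, 11 of 18648 genes (0.059%) were called, all lower in the double knockdown, and 672 had an unadjusted p under 0.05. The labels give no dose, so the presence of the ELOVL5 siRNA and a different amount of the ELOVL2 siRNA cannot be told apart here. After ELOVL5 itself, TBC1D16, a RAB-regulating gene, fell by 0.64 and LEPROTL1, a membrane protein gene, went from 472, 455 and 492 in siELOVL2 to 285, 306 and 277 in double-knockdown libraries (-0.71, adjusted p = 0.00566). UBE2E3 went from 430.5, 453 and 449.5 to 196, 202 and 279 (-0.99, adjusted p = 0.00921) and COMMD8, a member of the COMMD family, from 298, 259 and 268 to 135, 142 and 93.2 (-1.17, adjusted p = 0.0202). MIER1, a transcription repressor, fell by 0.82, EIF4EBP2 by 0.62, the G protein subunit GNG12 by 0.64 and CENPB, a centromere protein, by 0.50. SDHD_1, 1 of 2234 rows with a numbered name in the table, fell by 0.96. SOWAHB was at 4.92, 2.92 and 4.17 in siELOVL2 libraries and is listed at 0 in all 3 double-knockdown libraries. TBC1D16, CENPB, GNG12 and SOWAHB were named after their values were seen. Few of these calls are stable. The count was 7 without control 1, 6 without siELOVL2 1, 5 without siELOVL2 2, 2 without siELOVL2 3, 6 without double 1 and 3 without double 2, and 1 when only the compared libraries were fitted. LEPROTL1 was lost without siELOVL2 3 (adjusted p = 0.0611), EIF4EBP2 and MIER1 without siELOVL2 3 or double 2 (adjusted p 0.0611 to 0.0671), GNG12 without siELOVL2 2 or 3 or double 2 (adjusted p 0.0611 to 0.0863), UBE2E3 without siELOVL2 1, 2 or 3 or double 1 or 2 (adjusted p 0.05003 to 0.0863) and COMMD8 without control 1, siELOVL2 1, 2 or 3, or double 1 or 2 (adjusted p 0.0522 to 0.141). SDHD_1 and CENPB were lost without any 1 library other than siELOVL5 3 (adjusted p up to 0.372 for both), as was SOWAHB (up to 0.326). ELOVL5 and TBC1D16 were not lost, but TBC1D16 was when only the compared libraries were fitted, where ELOVL5 was the 1 call.

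Against siELOVL5, 516 genes (2.77%) were called, 253 higher and 263 lower. Here too, the presence of the ELOVL2 siRNA and a different amount of the ELOVL5 siRNA cannot be told apart. The count was 156 without double 2, 182 without double 1, 311 without double 3, 228 without siELOVL5 1, 323 without siELOVL2 2 and 789 without siELOVL5 3. Among genes at or above the median level HMOX1 led the rises at 3.08 (SE 0.21, adjusted p = 1.07e-05), from 1883, 1669 and 1441 in siELOVL5 libraries, followed by ZNF469 at 1.46 and GALNT9, a glycosyltransferase, at 1.24. ERMP1, a peptidase of the endoplasmic reticulum, rose by 0.99 and SLC48A1 by 0.91. The falls were led by ELOVL2, RSAD2, DLC1, DUSP3 and CERK. RSAD2, an antiviral interferon-stimulated gene, stood at 282, 174 and 1479 in siELOVL5 and 78.0, 57.6 and 35.2 in double-knockdown libraries (-2.93, adjusted p = 0.0211), and its call ended without double 2 or 3 (adjusted p 0.0699 to 0.072). DLC1, a GTPase-activating protein gene, went from 696, 564 and 1078 to 233, 223 and 196 (-1.79, adjusted p = 5.87e-04). The list of heme and iron genes had 5 calls higher and 1 lower in this comparison, the lower one being BACH1 (-1.24, adjusted p = 0.0132), and the NRF2 list had 7 higher and 0 lower.

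An interaction was tested as the double-knockdown effect minus the sum of both single effects on the log2 scale. None of 18648 genes (0%) passed by limma, the lowest adjusted p was 0.996, and 522 genes had an unadjusted p under 0.05. Without the intensity trend in the variance model, 9 were called. The intervals are wide for single genes. For HMOX1 the interaction was 0.60, with a 95% interval from -0.04 to 1.24, for TGFA -0.16 (-0.58 to 0.27), for GCLM -0.14 (-0.40 to 0.13) and for CCNG1 0.06 (-0.25 to 0.38). A result that misses the threshold does not show that the 2 siRNAs act additively on a gene.

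The words of the ELOVL2 siRNA printed above were carried by a larger share of falls than of rises, which is built in, since all the words had been picked from falls of these data. GAGAGGA was carried by rises about as often as by all scanned genes. Of 8693 genes with a GENCODE 29 3′ UTR and a mean at or above 93.8 normalized counts, the median of tested genes, 331 (3.81%) carry a word of the ELOVL2 siRNA. These include 84 of 335 scanned genes that fell (25.1%), 20 of the 42 that fell at least 2-fold, and 2 of 330 that rose (0.606%). GAGAGGA is carried by 1408 genes (16.2%), by 98 of the falls (29.3%) and by 55 of the rises (16.7%). Genes with a word of the ELOVL2 siRNA alone, 220 in all, had a median log2 difference of -0.27, and 62 fell and 2 rose. The 1297 genes with GAGAGGA alone had a median of -0.0001, and 76 fell (5.86%) and 55 rose (4.24%). The 7065 genes with neither had a median of 0.04, and 175 fell (2.48%) and 273 rose (3.86%). The 3′ UTRs of these sets differ in length, with medians of 3010.5, 2726 and 1001 bases, and the part of length in the differences was not tested.

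The same words were read in the 2 comparisons that hold no control library. The words came from a scan of these same data, so these counts are no independent support either. Of all 8693 scanned genes, 3.81% carry a word of the ELOVL2 siRNA and 16.2% carry GAGAGGA. Against siELOVL5, 67 of 210 scanned falls and 1 of 223 scanned rises carry a word of the ELOVL2 siRNA, and genes with that word alone had a median of -0.27. Against siELOVL2, 7 of the 9 scanned falls, the target ELOVL5 among them, carry GAGAGGA. Of the 9, 0 carry a word of the ELOVL2 siRNA, whose carriers had a median of -0.04. Named falls of the double knockdown with such a word in the 3′ UTR include DUSP3, CERK, CCNG1, VBP1, MOB1A, DPYSL3, ZNF367 and PEG10. RSAD2, called lower against siELOVL5, also carries ACGAATA there. B4GALT1, SIPA1L2, HMGB3 and HAS2 showed none of the ELOVL2 words there. No match says only that these letters are not in the annotated 3′ UTR.

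**Figure D5:**
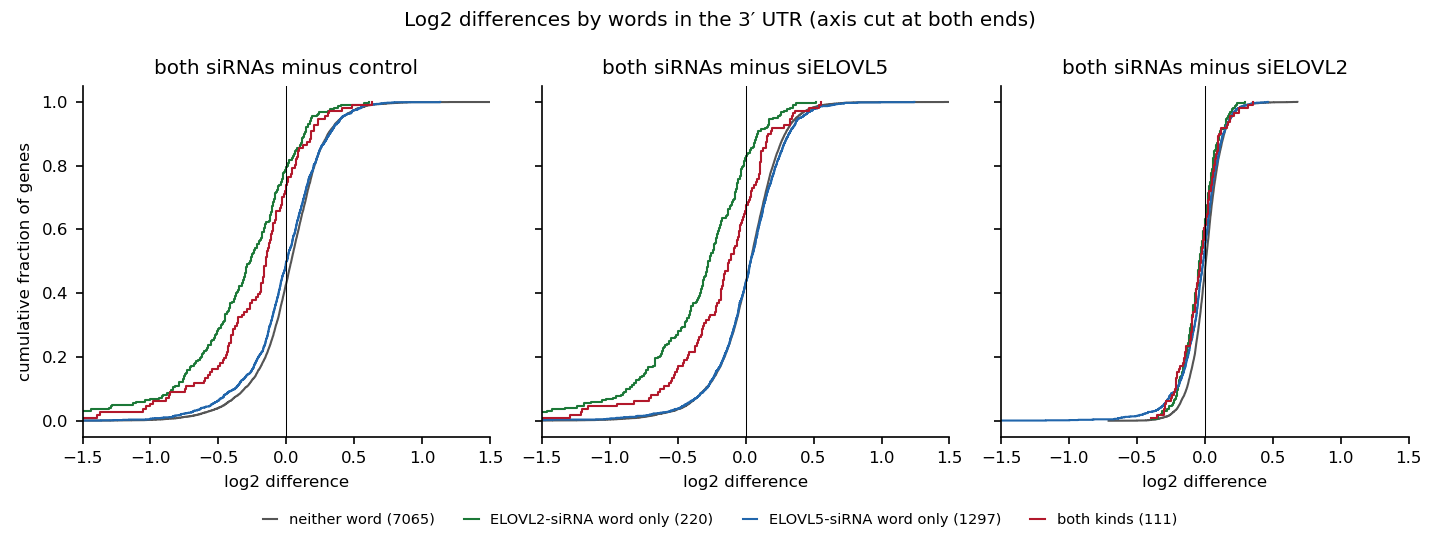
Cumulative fraction of genes (vertical axis) against the log2 difference of the double knockdown (horizontal axis, cut at both ends) from control, from siELOVL5 and from siELOVL2, for 8693 genes split by the words in their 3′ UTR. Carriers of a word of the ELOVL2 siRNA (green, 220 genes, and red, 111 with both kinds) lie left of genes with neither (grey, 7065) in the first 2 panels and close to them in the third, where the lower tail of GAGAGGA carriers (blue, 1297) reaches farthest left.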

How the data were processed

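RNA of 12 A498 libraries, 3 in each of 4 groups, was sequenced as paired 36-base reads, per the labels. The authors deposited 1 table of quantile-normalized read counts (signal values, not raw counts) for 57773 genes. For the aligner, counter, genome build and annotation the entry is: not given in the sources used here. Every column holds the same set of values, 69.0% of them 0, which is what marks them as quantile-normalized, so totals carry no depth. Depth was estimated from which genes share a tied value.

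The 18648 genes that reached a value of 1 in 3 or more of the 12 libraries were fitted with limma 3.58.1 (R 4.3.3) on log2(value + 1), with an intensity trend, group means and 8 residual degrees of freedom, all 12 libraries sharing 1 estimate of spread. A gene was called at a Benjamini-Hochberg adjusted p under 0.05 over all tested genes. Adjusted p-values in the text are from this test unless an alternative is named. The fit was tested on simulated data. The design had foreseen normalized values, and the same test was kept.

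Up to 12 genes each way were named by the largest difference among called genes with groups that do not overlap and a mean at or above the median level, up to 5 each way in the other comparisons, up to 4 called members of each list by adjusted p (or the 2 smallest p where none was called), and a set of always-given genes of the pathway. The members and lists were chosen with earlier results of these data known. ABCC2, ALDOA, ATP6V0D1, CDK4, CERS6, ENO1, FTH1, FTL, GCLC, NDRG1, PGK1, SLC2A1, THBS1 and TXNIP fall outside that rule and were added after their values were seen. Some genes of the lists and 1 sequence window are not reported here.

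Alternatives were TMM scaling, pseudocounts 0.5 and 4, no filter or a minimum of 10, the compared groups only, no intensity trend, library weights, the replicate number as a block, each library left out in turn, and, chosen after seeing the data, siELOVL5 3 and double 3 left out together. The words were searched in GENCODE 29 3′ UTRs (GRCh38) by gene symbol, and the build of the deposited table was not needed for this. Promoters are from RefSeq (GRCh38.p14).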

Additional observations from a re-analysis of the deposited data

How the results depend on the processing

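All 825 genes called against control kept their direction wherever they were tested under an alternative. Under TMM scaling, other pseudocounts, other filters and with only the compared groups fitted, 715 to 1106 genes were called. The count was 413 without the intensity trend, 2241 with library weights, and 1682 without siELOVL5 3 and double 3 together. It ran from 323 to 1779 when 1 library was left out. Against siELOVL2 the count of 11 became 1 with only the compared groups fitted, 21 without the trend, 27 with library weights and 19 without those 2 libraries, and 2 to 16 with 1 library left out. Against siELOVL5 the count of 516 became 47, 200, 1251 and 664 under the same 4 settings, and 156 to 789 with 1 library left out. The interaction gave 9 calls without the trend and 0 under the other settings run. It was not run for the compared groups only, since it needs all 4 groups. ELOVL2 stayed between -3.60 and -3.31 and ELOVL5 between -3.49 and -3.44 with 1 library left out. Over the single genes named, the same direction and side of the threshold held in 2753 settings, 314 lost the call, 78 gained it and 0 reversed. The lists moved too. With library weights 15 NRF2 targets, 11 HIF targets, 11 matrix genes and 6 p53 targets were called, against 6, 5, 5 and 2. Without the trend 4, 4, 2 and 1 were. The cause of these moves was not tested.

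With the replicate number as a block, 1866 genes were called against control, among them all 825, 12 against siELOVL2 and 1368 against siELOVL5. The block called 31 of the 40 mitosis genes, all lower, among them MKI67, NCAPG and UBE2C (adjusted p = 0.010, 0.00525 and 0.00378), 3 lipid droplet genes with PLIN2 (0.0135) and BSCL2 (0.0188), and the markers ITGAM (higher, 0.0473) and COL1A1 (lower, 0.0310). Whether equal numbers pair the libraries cannot be settled from these values. Some list medians rose with the number in every group. That of the cholesterol list was -0.24, -0.05 and 0.28 in controls 1, 2 and 3 and -0.05, -0.02 and 0.24 in doubles 1, 2 and 3. Others did not, such as the interferon list, at 0.20, -0.34 and 0.19 in controls and 0.51, -0.01 and -0.05 in doubles. Deviations from the group mean correlated at 0.140, 0.00991 and 0.195 for numbers 1, 2 and 3, and double 2 correlated best with control 1, at 0.0503, while doubles 1 and 3 correlated best with their own number. Genes under 0.917 normalized counts are at or below what a gene without a read can hold.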

Other observations

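Longer lists of other cell types gave 0 called genes by limma with all 12 libraries and the settings of the report. The 11 tested leukocyte markers had 2 members at an unadjusted p under 0.05, the 7 endothelial markers 0 and the 8 fibroblast and pericyte markers 3. Their members with the smallest p were at low levels, apart from the collagen gene COL1A1, which stood at 335, 431 and 422 in control and 306, 255 and 300.5 in double-knockdown libraries (limma adjusted p = 0.0765), and the smooth-muscle actin gene ACTA2 at 127, 129 and 116 and 147, 142 and 202 (adjusted p = 0.154). ITGAM, an integrin of myeloid cells, differed by 0.84 (adjusted p = 0.122), and was called higher with library weights (0.97, adjusted p = 0.0235). The endothelial ESAM and TEK differed by -0.40 and 0.65 (adjusted p = 0.731 and 0.537). CD163, a macrophage receptor, is listed at 0 in all 3 control libraries and at 1.00, 1.83 and 1.67 in double-knockdown libraries. COL1A1 was called lower without siELOVL5 3 (adjusted p = 0.0459) and with library weights (0.0133).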
